A study of Mus musculus with 12 samples.

Results

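CA1 and CA3 of the mouse hippocampus were compared in formalin-fixed frozen sections that were profiled by photo-isolation chemistry (PIC). In PIC, reverse transcription primers carrying a photo-removable cage are used inside the tissue section, and light removes the cage only in a chosen region, so that only cDNA from that region is amplified. The comparison holds 4 replicates of CA1 and 4 of CA3, which are 8 of the 48 replicates of the series, and they were chosen by the preparation and the region given in the sample titles. All mice were ICR males of 8 weeks. The tissue was fixed with 4% paraformaldehyde (PFA), cut frozen and permeabilized in TE buffer at 70 °C for 1 h, and both regions had the same treatment. The other 3 conditions of the series were fresh-frozen sections permeabilized with HCl, fresh-frozen sections permeabilized with TE, and formalin-fixed paraffin sections permeabilized with TE. The dentate gyrus (DG) was irradiated in each condition as well.

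The 4 replicates of a region carried different barcodes and were pooled in 1 library. Library and region therefore coincide in this comparison and cannot be told apart. The study describes them as biological replicates. The mouse behind each replicate is not given in the sources used here, so the p-values measure the spread between these replicates. The region was called CA3 in the titles but CA2 in the text on the design, and the level of CA2 and CA3 genes is given below.

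CA1 and CA3 are successive fields of hippocampal pyramidal neurons. CA3 neurons receive mossy fibres from the granule cells of the dentate gyrus and excite one another and CA1 through long axon collaterals, and CA1 neurons carry the main output of the hippocampus to the subiculum and cortex. Both are glutamatergic, and the fields are told apart by transcription factors, receptors, channels and adhesion molecules that are enriched in the one or the other. An irradiated field also holds glia, interneurons, vessels and the processes of distant neurons, so a lower level in a region can mean fewer cells of a type or less RNA per cell, which cannot be told apart.

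Molecules were counted by unique molecular identifiers (UMIs), and levels are given as CPM, the UMIs of a gene scaled to the total UMIs of its replicate. The totals were 69037, 180873, 117298 and 54201 UMIs for CA1 replicates 1 to 4 and 98187, 141682, 127743 and 52800 UMIs for CA3 replicates 1 to 4. The mean was 105352 ± 57100 UMIs for CA1 and 105103 ± 39302 for CA3 (SD, n = 4 each), and the difference was within the spread (two-sided exact permutation test, p = 1, smallest p possible 0.0286). Detected genes, those with at least 1 UMI, numbered 9479 ± 1673 in CA1 and 9664 ± 1387 in CA3 (SD, n = 4 each, p = 0.943 in the same exact test). Replicate 4 was the shallowest in both regions. Mitochondrially encoded genes took 5.60% to 9.78% of the UMIs in CA1 and 5.82% to 8.81% in CA3. The TMM normalization factors lay between 0.955 and 1.04.

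A gene was tested if its counts over the 8 replicates added up to 10 UMIs or more, which left 8286 of 32546 genes in the table. At an adjusted p under 0.05, 597 genes were called, or 7.2% of those tested, with 277 higher in CA1 (3.34%) and 320 higher in CA3 (3.86%). The test was edgeR's quasi-likelihood test with Benjamini-Hochberg adjustment, and all adjusted p-values below come from it. The median log2 fold change over all genes tested was -0.00118, so the fold changes below are relative to a centre near 0. Genes with no overlap between the replicates of both regions numbered 465 on the CA1 side (5.61%) and 422 on the CA3 side (5.09%). DESeq2 called 292 genes, 127 higher in CA1 and 165 higher in CA3, and each of these was among the 597. When every replicate was thinned to 52800 UMIs, 323 genes were called, and after thinning below refers to this fit.

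**Figure D1:**
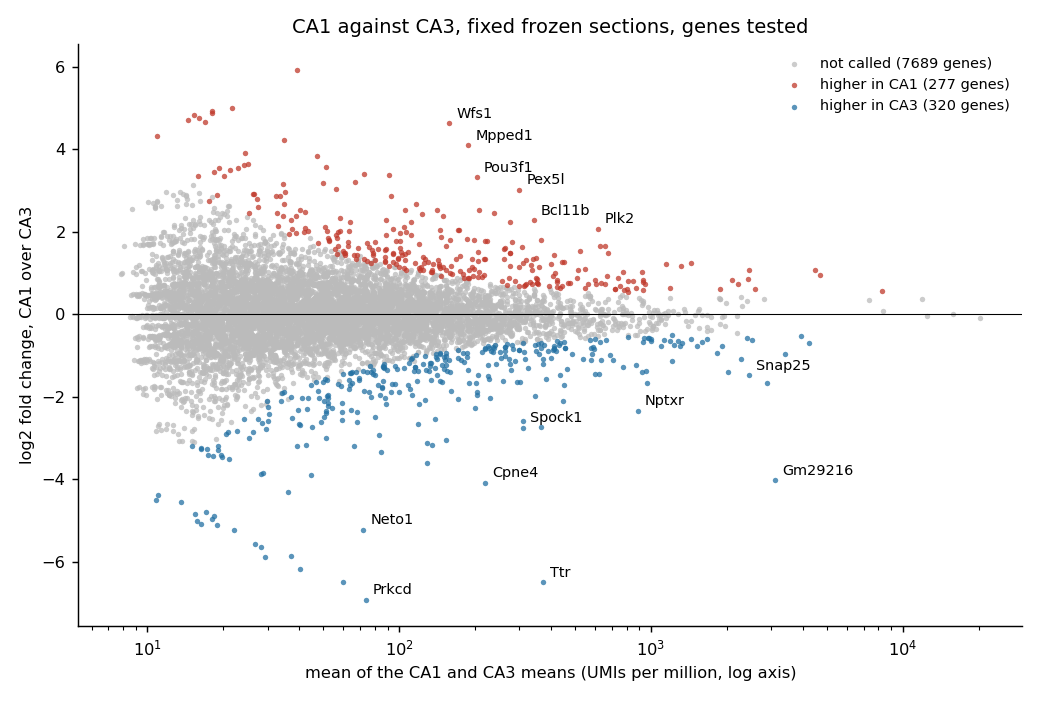
Log2 fold change of CA1 over CA3 (vertical axis) against the mean of the CA1 and CA3 means in CPM (horizontal log axis) for the 8286 genes tested in fixed frozen sections. Each point is 1 gene, and the 277 genes called higher in CA1 and the 320 called higher in CA3 are coloured. Wfs1 and Mpped1 lie far above 0 at 4.64 and 4.10, and Gm29216, Ttr and Prkcd lie far below 0.

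The known genes of CA1 pyramidal neurons marked the CA1 replicates. Of 13 genes in the list, 11 were tested and 11 were higher in CA1, with a median log2 fold change of 3.02 (background 3.34%, median -0.00118). Their summed level ran from 3056 to 3427 CPM in CA1 and from 436 to 509 in CA3. Wfs1, which encodes the endoplasmic reticulum protein wolframin and is a standard label of CA1, had 12, 82, 44 and 12 UMIs in CA1 and 2, 2, 1 and 0 in CA3. This was 174, 453, 375 and 221 CPM in CA1 and 20.4, 14.1, 7.83 and 0 in CA3, and the groups did not overlap. The means were 306 ± 131 CPM in CA1 and 10.6 ± 8.71 in CA3 (SD, n = 4), a log2 fold change of 4.64 (SE 0.43) with adjusted p = 5.71e-22. The exact two-sided permutation test on the 4 against 4 values gave p = 0.0286, the smallest it can give.

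The Wfs1 gene lies on the minus strand of chromosome 5 at 36966104 to 36989205 (GRCm38, GENCODE M21), and its identifier in the count table is ENSMUSG00000039474. The promoters of Wfs1 and of Spock1, a CA3 gene described below, are shown as examples of the sequence at the start of a gene from each side of the comparison. They are RefSeq promoters of build GRCm38.p6, from 250 bases before to 50 bases after the annotated start, and capitals mark GC boxes (GGGCGG or CCGCCC) and CCAAT boxes (CCAAT or ATTGG) found on either strand. The Wfs1 window is chr5:36988933-36989232 on the minus strand, with 4 GC boxes and 1 CCAAT box, and the Spock1 window is chr13:57908283-57908582 on the minus strand, with 1 GC box and 0 CCAAT boxes.
Wfs1: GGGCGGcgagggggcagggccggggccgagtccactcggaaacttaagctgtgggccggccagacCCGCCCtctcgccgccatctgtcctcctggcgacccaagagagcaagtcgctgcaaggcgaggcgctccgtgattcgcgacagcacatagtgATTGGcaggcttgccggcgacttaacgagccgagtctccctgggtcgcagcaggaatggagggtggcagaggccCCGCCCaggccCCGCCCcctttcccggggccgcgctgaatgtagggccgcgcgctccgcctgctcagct
Spock1: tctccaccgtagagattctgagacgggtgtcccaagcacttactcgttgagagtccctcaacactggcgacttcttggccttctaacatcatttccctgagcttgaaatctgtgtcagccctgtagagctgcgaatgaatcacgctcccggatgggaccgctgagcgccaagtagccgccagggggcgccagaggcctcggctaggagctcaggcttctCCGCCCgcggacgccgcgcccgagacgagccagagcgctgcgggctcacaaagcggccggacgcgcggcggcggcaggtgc
Of the genes called, 204 of the 277 higher in CA1 and 223 of the 320 higher in CA3 had a promoter in the RefSeq table, some with more than 1 start. A GC box occurred in 60.1% of the 288 promoters of genes higher in CA1, in 61.5% of the 330 promoters of genes higher in CA3, and in 63.9% of the 8406 promoters of genes tested. A CCAAT box occurred in 32.6%, 31.2% and 36.9% of the same promoters. The octamer ATGCAAAT, the letters that POU transcription factors are known to bind, occurred on either strand in 1.39% of the CA1 set, 0.909% of the CA3 set and 1.15% of the promoters of genes tested. Over all 32851 promoters in the table the shares were 35.7% for the GC box, 37.4% for the CCAAT box and 1.74% for the octamer. These are counts of letters in a window and not of bound sites.

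Mpped1, a metallophosphoesterase domain protein, had 25, 70, 36 and 20 UMIs in CA1 and 6, 2, 0 and 0 in CA3. All 4 CA1 replicates lay above all 4 CA3 replicates, and the log2 fold change was 4.10 (SE 0.39, adjusted p = 6.36e-21). Pou3f1, a POU transcription factor, had 304, 426, 367 and 387 CPM in CA1 and 30.6, 28.2, 47 and 37.9 in CA3. It was 10-fold higher in CA1 on the fitted scale (adjusted p = 1.69e-18). Pex5l encodes TRIP8b, the auxiliary subunit that sets the trafficking of HCN channels in pyramidal dendrites. Its level was 478, 404, 537 and 701 CPM in CA1 and 71.3, 35.3, 54.8 and 114 in CA3, 8.14-fold higher in CA1 (adjusted p = 8.88e-21). Bcl11b, the zinc finger factor also called CTIP2, was at 581 ± 27.8 CPM in CA1 and 105 ± 59.7 in CA3 (SD, n = 4). Spink8, a secreted protease inhibitor, was at 454 ± 55.7 CPM in CA1 and 95.2 ± 28.4 in CA3 (SD, n = 4). Neither gene overlapped between the regions, and the log2 fold changes were 2.29 and 2.23.

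The remaining members of the CA1 list were expressed at lower levels. Ccn3, a matricellular protein, had 13, 30, 16 and 10 UMIs in CA1 and 4, 0, 2 and 0 in CA3. Etv1, an ETS family factor, had 23, 45, 38 and 14 UMIs in CA1 and 10, 11, 7 and 5 in CA3. Man1a, a mannosidase of the secretory pathway, had 11, 29, 13 and 9 UMIs in CA1 and 5, 3, 3 and 1 in CA3. These genes were called at adjusted p of 5.94e-09, 5.23e-07 and 2.82e-05. Fibcd1, a receptor for acetylated ligands, had 2, 10, 10 and 1 UMIs in CA1 and 0, 1, 0 and 0 in CA3. Its ratio between the regions was 22.9-fold (95% counting interval 3.73 to 945). Ndst4, an enzyme of heparan sulfate modification, had 2, 12, 8 and 4 UMIs in CA1 and 0, 2, 1 and 0 in CA3, a ratio of 8.65-fold (95% counting interval 2.65 to 44.6). With so few UMIs on the CA3 side the size of these differences is poorly set, while each gene had adjusted p below 0.05. Under DESeq2 the call of Ndst4 was lost, and no adjusted p was given for Fibcd1. After thinning the call of Ndst4 was lost as well.

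The CA3 list moved the other way. Of 19 genes, 15 were tested and 11 were higher in CA3, with a median log2 fold change of -2.74 (background 3.86%). The summed level ran from 782 to 1181 CPM in CA1 and from 3182 to 3891 in CA3. Cpne4, a calcium-dependent phospholipid-binding protein of the copine family, lies on the plus strand of chromosome 9 at 104547286 to 105034544 (GRCm38, GENCODE M21) and had 2, 4, 4 and 0 UMIs in CA1 and 43, 53, 51 and 24 in CA3. The means were 21.3 ± 15 CPM in CA1 and 416 ± 36.5 in CA3 (SD, n = 4), a log2 fold change of -4.08 (SE 0.36) with adjusted p = 3.67e-24. Spock1, a proteoglycan of the testican family, had 29, 94, 102 and 73.8 CPM in CA1 and 611, 508, 532 and 530.3 in CA3. Elavl2, a neuronal RNA-binding protein, had 145, 94, 102 and 36.9 CPM in CA1 and 529.6, 628, 767 and 625 in CA3. Both were without overlap, and CA3 was 6.74-fold and 6.67-fold higher on the fitted scale. Leaving out any 1 replicate kept the calls of Cpne4, Spock1 and Elavl2.

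Other members of the CA3 list act in adhesion, proteoglycan synthesis and transmission. Nectin3, a cell adhesion molecule of the synapse, had 3, 9, 4 and 2 UMIs in CA1 and 38, 34, 26 and 6 in CA3, and Hs3st4, a heparan sulfate sulfotransferase, had 5, 14, 12 and 7 UMIs in CA1 and 35, 44, 59 and 17 in CA3. Nrip3 had 1, 8, 3 and 0 UMIs in CA1 and 18, 41, 40 and 11 in CA3. CA3 was 5.79-fold, 4.08-fold and 9.06-fold higher for these genes, and none overlapped. Npy2r, the presynaptic Y2 receptor for neuropeptide Y, had 0, 2, 2 and 1 UMIs in CA1 and 8, 12, 14 and 2 in CA3 (adjusted p = 5.75e-04). Grik4, a high-affinity kainate receptor subunit of mossy fibre synapses, had 0, 0, 0 and 1 UMIs in CA1 and 6, 6, 6 and 3 in CA3, a ratio of 21-fold (95% counting interval 3.39 to 871) in favour of CA3. Nnat, an imprinted proteolipid gene, had 0, 0, 0 and 0 UMIs in CA1 and 6, 7, 20 and 3 in CA3. Counting the CA1 side at a floor of 3 UMIs over the group, Nnat was at least 12-fold higher in CA3. Socs2, a suppressor of cytokine signalling, and Bok, a member of the BCL2 family, were called as well, although replicate 4 of CA3 had 0 UMIs of Socs2 and both genes overlapped between the regions. With the stricter low-count filter of edgeR (filterByExpr), 6 of the list were called. The other called members were removed by that filter and not tested. Npy2r and Bok lost the call after thinning, and DESeq2 gave no adjusted p for Grik4.

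**Figure D2:**
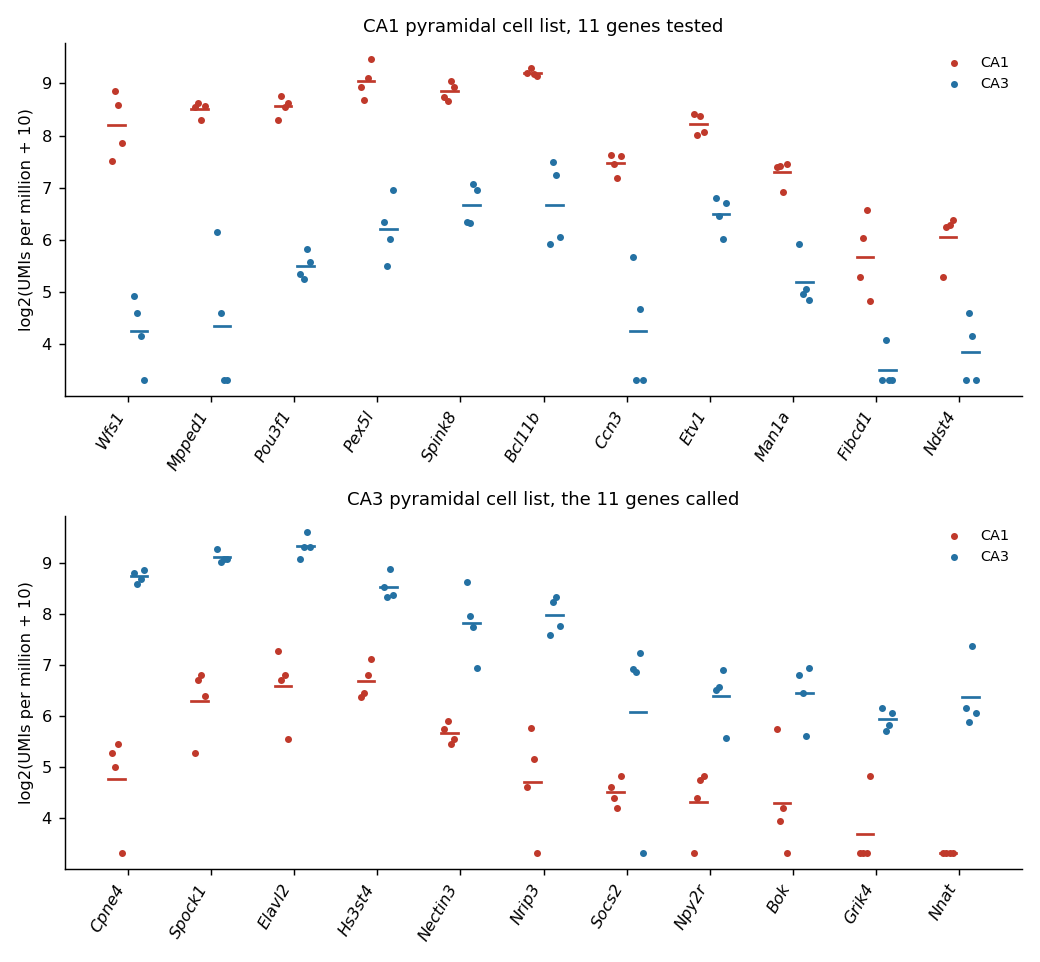
Level of each gene in each replicate, as log2(CPM + 10), for the 11 tested genes of the CA1 list (top) and the 11 called genes of the CA3 list (bottom). Points are replicates of CA1 and CA3 in fixed frozen sections and short bars are the means of 4. In the CA1 list every CA1 point lies above every CA3 point, and in the CA3 list Socs2 and Bok overlap.

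The 4 tested genes of the CA3 list that were not called included Homer3, a postsynaptic scaffold gene, with 1, 5, 0 and 0 UMIs in CA1 and 1, 7, 8 and 2 in CA3 (adjusted p = 0.216). Of 12 genes of the CA2 list, 5 were tested, 2 were higher in CA3 (40% of those tested, background 3.86%) and 7 had fewer than 10 UMIs. Those higher were Pcp4, a calmodulin regulator, with 20, 29, 39 and 10 UMIs in CA1 and 67, 133, 59 and 23 in CA3, and the calcium-binding Necab2, with 0, 1, 0 and 0 UMIs in CA1 and 4, 5, 5 and 1 in CA3. Without CA1 replicate 3 or CA3 replicate 3, 1 of them was called. Pcp4 is also abundant in the dentate gyrus, where its mean was 1178 CPM. The summed level of the CA2 list was 478, 370.4, 520.0 and 332 CPM in CA1 and 1018, 1158, 814 and 606 in CA3, and the CA3 list stood at 3554, 3254, 3891 and 3182 CPM in the CA3 replicates. The library titled CA3 carried more of the CA3 list than the CA1 library in every replicate, and a part of CA2 in it could not be told apart from the CA3 field.

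Of the genes that the study used as labels, Wfs1 is described above. The study tested its labels between CA1 and DG, and it listed Ociad2 and Dkk3 as markers of CA1 and CA3 alike. Ociad2 was higher in CA1, with 46, 81, 69 and 37 UMIs in CA1 and 37, 42, 38 and 21 in CA3 (log2 fold change 0.76, adjusted p = 0.00749). Dkk3, a secreted protein of the dickkopf family, was at 522 ± 222 CPM in CA1 and 519 ± 58.6 in CA3 (SD, n = 4), a log2 fold change of -0.09 with adjusted p = 0.89. Prox1, the transcription factor that defines dentate granule cells, had 4, 12, 5 and 2 UMIs in CA1 and 5, 15, 10 and 2 in CA3 (adjusted p = 0.67), and Pdzd2 had 5, 0, 3 and 1 UMIs in CA1 and 4, 1, 1 and 0 in CA3 (adjusted p = 0.812). Both are dentate genes, at 667 and 140.0 CPM on average in the DG replicates. The dentate granule list had 8 tested genes, of which 3 were higher in CA3 (C1ql2, Zic1 and Sema5a) and 1 was higher in CA1 (Lct). These are 37.5% and 12.5%, against 3.86% and 3.34% over all genes tested, and Zic1 is also in the thalamic list below. Its summed level ran from 221 to 370.4 CPM in CA1 and from 398 to 614 in CA3, against 2527 to 2979 CPM in the DG replicates. C1ql2 moved from -3.27 to -4.93 without CA1 replicate 1, and Sema5a from -1.62 to -2.76 without CA1 replicate 2. Among these genes the call was lost for C1ql2 without CA1 replicate 2 (-2.65), CA1 replicate 3 (-2.93), CA1 replicate 4 (-3.17) or CA3 replicate 1 (-3.15), for Lct without CA1 replicate 2 (1.36), CA1 replicate 3 (1.17), CA3 replicate 1 (1.57), CA3 replicate 2 (1.63), CA3 replicate 3 (1.39) or CA3 replicate 4 (1.24), for Necab2 without CA1 replicate 3 (-3.07) or CA3 replicate 3 (-3.36), and for Ociad2 without CA3 replicate 2 (0.67) or CA3 replicate 3 (0.66). Values in brackets after a replicate that was left out are the log2 fold change, or the interaction value, without it. Lct lost the call after thinning and under DESeq2, and C1ql2 and Lct did so with no low-count filter and without replicate 4 of both regions. DESeq2 gave no adjusted p for C1ql2, Zic1 or Necab2.

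Among the remaining genes with the largest changes on the CA1 side were a kinase, channels and adhesion molecules. Plk2, a polo-like kinase that is induced by neuronal activity and acts on spines, had 884, 907, 1151 and 1033 CPM in CA1 and 224, 226, 219 and 265 in CA3. The groups were far apart, 4.21-fold on the fitted scale (adjusted p = 1.15e-19). Kcnh7, a potassium channel of the ERG family, had 7, 25, 22 and 6 UMIs in CA1 and 1, 2, 2 and 0 in CA3, and Cdh6, a classical cadherin, had 4, 21, 14 and 4 UMIs in CA1 and 1, 1, 2 and 0 in CA3. Thbd, which encodes thrombomodulin, had 8, 24, 13 and 7 UMIs in CA1 and 0, 3, 1 and 1 in CA3. CA1 was 10.6-fold, 9.17-fold and 9.27-fold higher for these. Doc2b, a calcium sensor of vesicle release, had 16, 37, 19 and 13 UMIs in CA1 and 1, 7, 5 and 0 in CA3. Arhgap12, a GTPase-activating protein, had 27, 81, 28 and 18 UMIs in CA1 and 4, 9, 7 and 5 in CA3. Tmsb10, an actin monomer-binding thymosin, had 9, 21, 13 and 3 UMIs in CA1 and 0, 5, 0 and 0 in CA3. Doc2b, Arhgap12 and Tmsb10 had log2 fold changes of 2.66, 2.52 and 3.04. The rule that named them required no overlap between the replicates of the regions. Without CA3 replicate 2 the value of Tmsb10 was 6.42.

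Fa2h, which makes the hydroxylated fatty acids of myelin lipids, had 13, 42, 18 and 22 UMIs in CA1 and 4, 5, 5 and 2 in CA3 (log2 fold change 2.53). The predicted gene Gm2115 had 10, 30, 25 and 7 UMIs in CA1 and 3, 2, 3 and 1 in CA3 and the long noncoding RNA Pantr1 had 23, 79, 43 and 25 UMIs in CA1 and 9, 3, 11 and 6 in CA3, with log2 fold changes of 2.87 and 2.46. The long noncoding RNA Gm37459 had 8, 29, 2 and 5 UMIs in CA1 and 1, 1, 1 and 0 in CA3, a ratio of 14.6-fold (95% counting interval 4.69 to 73.7). Gm9701 is annotated as a processed pseudogene and had 17, 19, 22 and 11 UMIs in CA1 and 4, 3, 5 and 0 in CA3 (log2 fold change 2.52). Its reads may be shared with its parent gene, so this value is uncertain.

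On the CA3 side the largest changes outside the list included secretory and synaptic genes. Nptxr, the neuronal pentraxin receptor, had 304, 326, 281 and 258 CPM in CA1 and 1365, 1405, 1644 and 1496 in CA3. The groups did not overlap and CA3 was 5.05-fold higher (adjusted p = 5.83e-28). Chgb, chromogranin B of dense-core vesicles, had 1579, 956, 1262 and 1882 CPM in CA1 and 5021, 3218, 4533 and 4564 in CA3, 3.19-fold higher in CA3 (adjusted p = 2.20e-20). Neto1, an auxiliary subunit of kainate receptors, had 0, 0, 1 and 0 UMIs in CA1 and 13, 16, 12 and 12 in CA3, a ratio of 53.1-fold (95% counting interval 9.13 to 2137). Slit2, the secreted guidance ligand of Robo receptors, had 2, 2, 2 and 0 UMIs in CA1 and 12, 23, 19 and 10 in CA3. Mctp1, a calcium-binding membrane protein, had 1, 0, 3 and 1 UMIs in CA1 and 14, 15, 14 and 6 in CA3. Fxyd7, a regulator of the sodium pump in neurons, had 2, 2, 2 and 4 UMIs in CA1 and 22, 27, 24 and 16 in CA3. For Slit2, Mctp1 and Fxyd7 the log2 fold changes were -3.35, -3.19 and -3.12. The rule that named these genes required no overlap between the replicates of the regions.

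Kctd4, a potassium channel tetramerization domain protein, had 1, 2, 3 and 2 UMIs in CA1 and 27, 39, 26 and 10 in CA3, and Ak5, a brain adenylate kinase, had 4, 5, 3 and 2 UMIs in CA1 and 22, 35, 51 and 11 in CA3. Ostf1, an SH3 domain protein, had 3, 1, 2 and 1 UMIs in CA1 and 16, 14, 14 and 11 in CA3. Their log2 fold changes were -3.60, -3.04 and -2.94. Ccnd2, cyclin D2, was at 79.4 ± 27.2 CPM in CA1 and 539 ± 91.6 in CA3 (SD, n = 4), a log2 fold change of -2.59. Gm43629, a processed pseudogene, had 0, 0, 0 and 0 UMIs in CA1 and 14, 7, 10 and 11 in CA3, at least 14-fold higher in CA3 against a floor of 3 UMIs over the CA1 group, and its reads may be shared with a parent gene.

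Most of the called transcription factors of excitatory neurons were on the CA1 side. Of 42 tested, 9 were higher in CA1 (21.4%) and 2 in CA3 (4.76%), and the median log2 fold change was -0.01. These shares, here and for the lists below, stand against 3.34% higher in CA1 and 3.86% higher in CA3 over all genes tested. Besides Pou3f1, Bcl11b and Etv1, the factors higher in CA1 were Pou3f3, Foxp1, Lmo3, Nr3c1, Zeb2 and Tcf4. Pou3f3, a second POU factor, had 13, 55, 30 and 19 UMIs in CA1 and 3, 10, 8 and 6 in CA3 (log2 fold change 2.04). Foxp1, a forkhead factor, had 46, 110, 110 and 50 UMIs in CA1 and 24, 27, 41 and 16 in CA3 (log2 fold change 1.54). Nr3c1, the glucocorticoid receptor, was at 317 ± 14.8 CPM in CA1 and 121 ± 26.7 in CA3 (SD, n = 4, log2 fold change 1.34). Lmo4, a LIM-only cofactor, was higher in CA3, with 17, 46, 35 and 14 UMIs in CA1 and 53, 91, 91 and 40 in CA3 (log2 fold change -1.33), and so was Tcf7l2, a factor of the Wnt pathway, with 0, 7, 6 and 1 UMIs in CA1 and 14, 24, 6 and 6 in CA3 (log2 fold change -1.86). Both called POU factors were higher in CA1, and of the LIM-only factors Lmo3 was higher in CA1 (1.34) and Lmo4 in CA3. The call of Tcf7l2 was lost without CA3 replicate 2 (-1.58). Nr3c1 lost the call after thinning. The factors higher in CA3 numbered 1 without CA3 replicate 2. Tcf7l2 is also in the thalamic list below.

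Immediate early genes, which are transcribed within minutes of synaptic activity, had 15 tested members, with 3 called (20%), all higher in CA1. Egr1 had 20, 31, 36 and 14 UMIs in CA1 and 11, 6, 17 and 4 in CA3, and Nr4a1 had 11, 18, 13 and 1 UMIs in CA1 and 1, 3, 6 and 0 in CA3, where replicate 4 of CA1 fell among the CA3 values. Homer1, whose short form is induced by activity, had a log2 fold change of 0.75. Fos had 1, 10, 1 and 3 UMIs in CA1 and 0, 2, 0 and 0 in CA3 (adjusted p = 0.0758) and Arc had 1, 13, 5 and 2 UMIs in CA1 and 1, 0, 4 and 1 in CA3 (adjusted p = 0.171), so neither passed the threshold. Fos gained a call, higher in CA1, without CA1 replicate 3 (2.92) or CA3 replicate 2 (4.82). The log2 fold changes of Egr1 and Nr4a1 were 1.40 and 2.02. DESeq2 called 1 of the list. Homer1 lost its call without CA3 replicate 2 (0.61) or CA3 replicate 3 (0.66). Homer1 lost the call after thinning and without replicate 4 of both regions, and Nr4a1 and Homer1 did so under DESeq2.

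AMPA and NMDA receptor subunits were the ionotropic glutamate receptor genes called on the CA1 side. Of 12 ionotropic glutamate receptor genes tested, 4 were higher in CA1 (33.3%) and 1, Grik4, in CA3 (8.33%), with a median log2 fold change of 0.54. Gria1 and Gria2, AMPA receptor subunits, were at log2 fold changes of 0.61 and 0.73. Gria2 was at 2787 ± 522 CPM in CA1 and 1634 ± 149 in CA3 (SD, n = 4). Grin2a and Grin2b, NMDA receptor subunits, were at 1.02 and 0.61, and Grin2a was at 1249 ± 168 CPM in CA1 and 595 ± 43 in CA3 (SD, n = 4). Among these genes the call was lost for Gria1 without CA3 replicate 3 (0.50) and for Grin2b without CA1 replicate 1 (0.55), CA3 replicate 2 (0.54), CA3 replicate 3 (0.60) or CA3 replicate 4 (0.54). Gria1 and Grin2b lost the call after thinning, and Grin2b did so without replicate 4 of both regions. Ionotropic receptor genes called on the CA1 side numbered 2 after thinning or without CA3 replicate 3.

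The genes that cluster or accompany these receptors were split between the fields. Of 29 auxiliary and scaffold genes tested, 3 were higher in CA1 (10.3%; Homer1, Homer2 and Nptx2) and 4 in CA3 (13.8%; Neto1, Nptxr, Nptx1 and Olfm1). The neuronal pentraxins were on opposite sides. Nptx1 had 18, 71, 48 and 13 UMIs in CA1 and 96, 127, 133 and 39 in CA3 and Nptx2, the activity-regulated member, had 7, 28, 22 and 3 UMIs in CA1 and 8, 6, 5 and 2 in CA3, log2 fold changes of -1.46 and 1.40. Olfm1, an olfactomedin that binds AMPA receptor complexes, was at 2332 ± 155 CPM in CA1 and 4484 ± 413 in CA3 (SD, n = 4, log2 fold change -0.97). Grm5, a group I metabotropic glutamate receptor, was higher in CA1 with a log2 fold change of 0.68. DESeq2 called 0 of the auxiliary genes on the CA1 side and 4 on the CA3 side. The call was lost, on leaving out 1 replicate, for Homer1 without CA3 replicate 2 (0.61) or CA3 replicate 3 (0.66), for Homer2 without CA3 replicate 3 (0.89), for Nptx2 without CA1 replicate 2 (1.31), CA1 replicate 3 (1.18), CA3 replicate 2 (1.27) or CA3 replicate 3 (1.24), and for Grm5 without CA1 replicate 3 (0.59) or CA3 replicate 3 (0.60). Homer2 lost the call after thinning, Homer2 and Nptx2 did so under DESeq2, and Grm5 did so without replicate 4 of both regions. Auxiliary and scaffold genes called on the CA1 side numbered 1 after thinning or without CA3 replicate 2 or CA3 replicate 3.

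Potassium channel genes were called in both directions. Of 46 tested, 6 were higher in CA1 and 7 in CA3, with a median log2 fold change of 0.27. The Kv4 channels, which carry the A-type current of dendrites, differed within the family. Kcnd2 (Kv4.2) had 17, 64, 41 and 14 UMIs in CA1 and 10, 13, 15 and 7 in CA3 and was higher in CA1 (1.5, adjusted p = 1.03e-05), whereas Kcnd3 (Kv4.3) had 0, 1, 0 and 3 UMIs in CA1 and 5, 13, 8 and 3 in CA3 and was higher in CA3 (-2.70, adjusted p = 0.00353). Kcnip4, a subunit that binds Kv4 channels, was higher in CA1 (0.97), as was Kcnab1, the beta subunit of Kv1 channels (1.49). Kcna1 (Kv1.1) and Kcnc2 (Kv3.2) were higher in CA3 at -1.18 and -1.63, and Kcnc2 had 4, 16, 8 and 3 UMIs in CA1 and 18, 33, 29 and 13 in CA3. Kcnf1 and Kcnt2, which encode other potassium channel subunits, were on the CA3 side at -2.58 and -2.11. Among 20 calcium, sodium and HCN channel genes, 1 was called in each direction (5%), near the 3.34% and 3.86% over all genes tested. The sodium channel subunit Scn3b was higher in CA1 (1.09), and Cacna1a, the P/Q-type channel of presynaptic terminals, was higher in CA3 (-0.86). DESeq2 called 4 of the potassium channels on the CA1 side and 1 on the CA3 side, and it did not call Scn3b. Kcnd3 stood at -4.22 without CA1 replicate 4. With 1 replicate left out, the call was lost for Kcnd3 without CA1 replicate 2 (-2.32), for Kcnip4 without CA1 replicate 1 (0.88), CA1 replicate 4 (0.89) or CA3 replicate 1 (0.74), for Kcna1 without CA1 replicate 3 (-0.97), CA1 replicate 4 (-1.03), CA3 replicate 2 (-1.02) or CA3 replicate 3 (-1.14), for Kcnf1 without CA1 replicate 2 (-1.87), CA1 replicate 3 (-2.67) or CA3 replicate 1 (-2.33), for Kcnt2 without CA1 replicate 1 (-1.88), CA1 replicate 2 (-2.52), CA1 replicate 3 (-1.98), CA3 replicate 1 (-2.03), CA3 replicate 3 (-1.94) or CA3 replicate 4 (-2.03), and for Scn3b without CA1 replicate 3 (0.88). Kcnd3, Kcnip4, Kcnf1, Kcnt2 and Cacna1a lost the call after thinning, Kcnd3, Kcnip4, Kcna1, Kcnf1 and Kcnt2 did so under DESeq2, Kcnip4 and Kcnt2 did so with no low-count filter, and Kcnip4, Kcna1, Kcnf1 and Kcnt2 did so without replicate 4 of both regions. Potassium channel genes called on the CA1 side numbered 3 without CA3 replicate 1, and those on the CA3 side numbered 3 after thinning or without CA1 replicate 3, 2 without CA1 replicate 2, and 4 without CA3 replicate 3.

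Calcium signalling genes were likewise split, with 7 higher in CA1 (15.9%) and 8 in CA3 (18.2%) of 44 tested. Itpka, the kinase that phosphorylates inositol trisphosphate in spines, had 16, 68, 28 and 15 UMIs in CA1 and 6, 9, 12 and 2 in CA3 (2.03), and Itpr1, its receptor on the endoplasmic reticulum, had 9, 37, 34 and 6 UMIs in CA1 and 3, 11, 8 and 3 in CA3 (1.69). Ppp3ca, the catalytic subunit of calcineurin, was among the most abundant genes, at 9905 ± 1514 CPM in CA1 and 6585 ± 671 in CA3 (SD, n = 4, 0.56). Ncald, a neuronal calcium sensor, had 6, 13, 7 and 2 UMIs in CA1 and 19, 36, 42 and 18 in CA3 and was higher in CA3 (-2.07), and so was Camk2d (-2.04). Camk2a, the main kinase of the postsynaptic density, was at 932 ± 211 CPM in CA1 and 1111 ± 146 in CA3 (SD, n = 4), and did not pass the threshold (adjusted p = 0.44). DESeq2 called 6 and 3 of the list on the CA1 and CA3 side. Among these genes the call was lost for Camk2d without CA1 replicate 2 (-1.89) or CA1 replicate 3 (-1.76) and for Ppp3ca without CA1 replicate 4 (0.46) or CA3 replicate 1 (0.51). Camk2d lost the call after thinning and under DESeq2, and Ppp3ca did so without replicate 4 of both regions. Calcium signalling genes called on the CA3 side numbered 4 after thinning or without CA1 replicate 2, and 5 without CA3 replicate 3.

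Genes of synaptic vesicles and release were called mainly on the CA3 side. Of 50 tested, 19 were higher in CA3 (38%) and 2 in CA1 (4%, Doc2b and Rab3c), 41 had a log2 fold change below 0, and the median was -0.59. The summed level ran from 17085 to 18367 CPM in CA1 and from 26450 to 29184 in CA3, without overlap. Snap25, the SNARE protein of the plasma membrane, had 1260, 1139, 1270 and 1642 CPM in CA1 and 3575, 3324, 3538 and 3883 in CA3. Syn2, a synapsin that tethers vesicles, had 391, 553, 520.0 and 351 CPM in CA1 and 1110, 1263, 1965 and 1591 in CA3. Both were without overlap, with log2 fold changes of -1.48 (adjusted p = 3.28e-16) and -1.67 (adjusted p = 1.35e-16). Rph3a, rabphilin, was at -1.97, Sv2b, a vesicle glycoprotein, at -1.64, and Bsn, the active zone scaffold bassoon, at -1.61. Synpr, synaptoporin, which is a marker of mossy fibre terminals, had 1, 6, 4 and 3 UMIs in CA1 and 10, 18, 17 and 9 in CA3 (-1.95). Syt1, the calcium sensor of fast release, was at -0.59 and Syn1 at -0.97. Slc17a7, the vesicular glutamate transporter VGLUT1, had 3, 17, 11 and 2 UMIs in CA1 and 12, 19, 24 and 4 in CA3 and did not pass the threshold (adjusted p = 0.146). The call of Rab3c was lost without CA1 replicate 2 (0.75) or CA3 replicate 3 (0.87). Rab3c and Syt1 lost the call after thinning, and Rab3c did so under DESeq2. Vesicle and release genes called on the CA1 side numbered 1 after thinning or without CA1 replicate 2 or CA3 replicate 3.

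**Figure D3:**
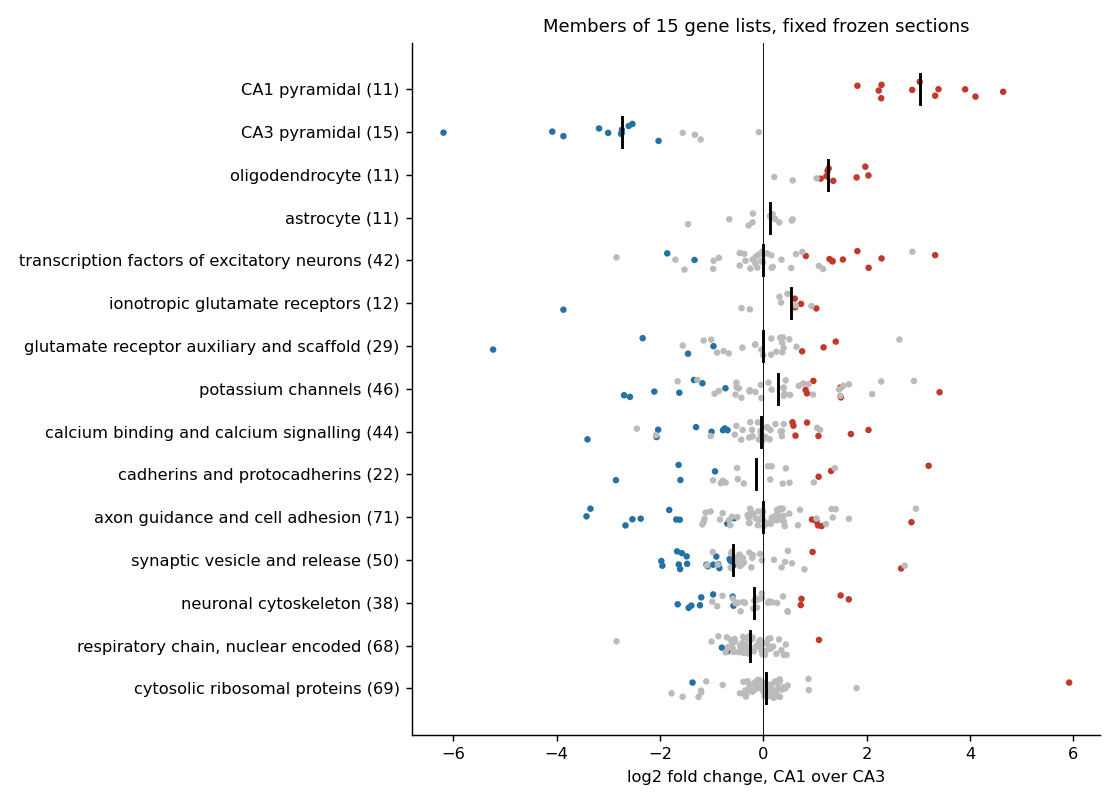
Log2 fold change of CA1 over CA3 for the tested members of 15 gene lists in fixed frozen sections, with the number tested in brackets. Red points were called higher in CA1, blue points higher in CA3 and grey points were not called, and black bars are the medians. The CA1 and CA3 lists lie on opposite sides of 0, and the vesicle list has 19 of 50 members called on the CA3 side.

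Cytoskeletal genes were called on both sides. Of 38 cytoskeletal genes tested, 8 were higher in CA3 (21.1%) and 4 in CA1 (10.5%). The neurofilament subunits Nefl, Nefm and Nefh, which give axons their calibre, had log2 fold changes of -1.39, -1.20 and -1.45, and Nefl had 811, 431, 512 and 332 CPM in CA1 and 1477, 1214, 1487 and 1098 in CA3. Stmn2, a regulator of microtubule growth in axons, had 579, 426, 469 and 683 CPM in CA1 and 1263, 974, 1237 and 1326 in CA3 (-1.23). Map4, a microtubule-associated protein, was on the CA1 side at 1011 ± 67.6 CPM in CA1 and 343 ± 91.4 in CA3 (SD, n = 4, 1.49), and so was the actin regulator Marcksl1 (1.65). Nefh lost its call without CA1 replicate 2 (-1.35), CA1 replicate 4 (-1.25), CA3 replicate 1 (-1.40) or CA3 replicate 3 (-1.39). Nefh lost the call after thinning, under DESeq2 and without replicate 4 of both regions.

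Adhesion and guidance genes were called in both directions. Of 22 cadherins and protocadherins tested, 3 were higher in CA1 (13.6%) and 4 in CA3 (18.2%). Cdh9, which is known at mossy fibre synapses, had 0, 0, 1 and 1 UMIs in CA1 and 4, 4, 5 and 4 in CA3, a ratio of 8.52-fold (95% counting interval 2.02 to 76) in favour of CA3, and Pcdh8, a protocadherin, was on the same side (-1.61). Of 71 guidance and adhesion genes, 5 were higher in CA1 (7.04%) and 10 in CA3 (14.1%), with a median of -0.01. The fibronectin leucine-rich repeat proteins were on opposite sides, Flrt2 with 11, 34, 14 and 11 UMIs in CA1 and 5, 12, 10 and 4 in CA3 (1.13) and Flrt3 with 3, 5, 8 and 4 UMIs in CA1 and 16, 25, 23 and 8 in CA3 (-1.82). Unc5c, a netrin receptor to which FLRT proteins also bind, had 2, 5, 1 and 1 UMIs in CA1 and 12, 18, 10 and 7 in CA3 (-2.37). Eph receptors were split, Epha7 on the CA1 side (0.94) and Ephb1 on the CA3 side (-1.69). Adgrl2, latrophilin 2, had 6, 10, 6 and 3 UMIs in CA1 and 0, 3, 0 and 0 in CA3, a ratio of 8.31-fold (95% counting interval 2.54 to 43) in favour of CA1. DESeq2 called 1 cadherin gene in each direction, and 1 and 6 guidance and adhesion genes on the CA1 and CA3 side. It gave no adjusted p for Cdh9. The log2 fold change of Adgrl2 was 2.86, and 5.59 without CA3 replicate 2. Among these genes the call was lost for Cdh9 without CA1 replicate 1 (-2.66), CA1 replicate 2 (-2.16), CA3 replicate 1 (-2.85) or CA3 replicate 4 (-2.67), for Pcdh8 without CA1 replicate 3 (-1.37), CA3 replicate 1 (-1.43) or CA3 replicate 4 (-1.49), for Flrt2 without CA1 replicate 2 (1.02), CA1 replicate 4 (1.05), CA3 replicate 1 (1.01) or CA3 replicate 3 (1.13), and for Adgrl2 without CA3 replicate 3 (2.38). Cdh9, Flrt2 and Adgrl2 lost the call after thinning, Pcdh8, Flrt2 and Adgrl2 did so under DESeq2, Cdh9 and Flrt2 did so with no low-count filter, and Cdh9, Pcdh8 and Flrt2 did so without replicate 4 of both regions. Cadherin and protocadherin genes called on the CA1 side numbered 1 without CA1 replicate 2 or CA3 replicate 2, and those on the CA3 side numbered 2 after thinning or without CA1 replicate 2, CA1 replicate 3 or CA3 replicate 1, and 1 without CA3 replicate 4. Guidance and adhesion genes called on the CA1 side numbered 3 after thinning or without CA1 replicate 2 or CA1 replicate 4, and those on the CA3 side numbered 6 after thinning.

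Receptors for modulators were mostly too low to be tested, since 27 of 45 had fewer than 10 UMIs. Of 18 tested, 3 were higher in CA1 (16.7%) and 2 in CA3 (11.1%). The serotonin receptors Htr1a and Htr1b were on the CA1 side, Htr1a with 4, 18, 14 and 4 UMIs in CA1 and 2, 1, 3 and 3 in CA3 and Htr1b with 0, 10, 4 and 5 UMIs in CA1 and 0, 0, 0 and 1 in CA3. The other call on that side was Mchr1, a receptor for melanin-concentrating hormone (2.07). Adora1, the adenosine A1 receptor that lowers release, was on the CA3 side with 32, 50, 36 and 15 UMIs in CA1 and 52, 68, 70 and 40 in CA3 (-0.82). Bdnf, the neurotrophin, was on the CA3 side at 156 ± 23.2 CPM in CA1 and 307 ± 97.7 in CA3 (SD, n = 4, adjusted p = 0.0177), with the replicates overlapping. Sorcs3, a sorting receptor of the same pathway, was on the CA1 side (1.56). The granins were on opposite sides, Scg2 with 11, 17, 17 and 12 UMIs in CA1 and 4, 8, 6 and 3 in CA3 (1.45) and Chgb, given above, with -1.68. DESeq2 called 0 of the receptors on the CA1 side, gave no adjusted p for Htr1b and called neither Bdnf nor Sorcs3. The call was lost, on leaving out 1 replicate, for Bdnf without CA3 replicate 1 (-0.84), CA3 replicate 3 (-0.82) or CA3 replicate 4 (-0.80), for Htr1a without CA1 replicate 3 (1.82) or CA3 replicate 2 (1.58), for Htr1b without CA1 replicate 2 (3.38), for Mchr1 without CA1 replicate 1 (1.96), CA1 replicate 2 (2.16), CA1 replicate 3 (2.19), CA1 replicate 4 (1.97), CA3 replicate 1 (2.02), CA3 replicate 2 (2.16) or CA3 replicate 3 (1.55), and for Sorcs3 without CA1 replicate 3 (1.31). Htr1a, Mchr1, Adora1, Bdnf, Sorcs3 and Scg2 lost the call after thinning, Htr1a and Mchr1 did so under DESeq2, Mchr1 did so with no low-count filter, and Mchr1, Adora1, Bdnf and Scg2 did so without replicate 4 of both regions. Modulator receptor genes called on the CA1 side numbered 0 after thinning, and 1 without CA1 replicate 2, CA1 replicate 3 or CA3 replicate 2, and those on the CA3 side numbered 0 after thinning.

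The shares of housekeeping genes called lay near or below those of all genes tested, which were 3.34% higher in CA1 and 3.86% higher in CA3. Of 69 cytosolic ribosomal protein genes tested, 1 was called in each direction, with a median log2 fold change of 0.05. Rps6 had 9, 12, 3 and 5 UMIs in CA1 and 0, 0, 0 and 0 in CA3, at least 9.64-fold higher in CA1 against a floor of 3 UMIs over the CA3 group, and Rpl10 had 5, 15, 8 and 4 UMIs in CA1 and 27, 27, 20 and 7 in CA3. Ribosomal protein genes have many processed copies that can share their reads, so these values are uncertain. Of 68 nuclear genes of the respiratory chain, 2 were higher in CA3 and 1 in CA1, and 48 had a log2 fold change below 0 (median -0.26). Their summed level ran from 17564 to 19335 CPM in CA1 and from 19394 to 21398 in CA3, without overlap. The 13 mitochondrially encoded genes tested gave 0 calls with edgeR and with DESeq2, and 4 of them had an unadjusted p under 0.05 in edgeR. Rpl10 lost the call after thinning. Respiratory chain genes called on the CA1 side numbered 0 after thinning or without CA1 replicate 1, CA1 replicate 3, CA1 replicate 4, CA3 replicate 2 or CA3 replicate 4, and those on the CA3 side numbered 0 after thinning or without CA1 replicate 2, and 1 without CA3 replicate 1 or CA3 replicate 3.

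Most oligodendrocyte genes were higher in CA1. Of 11 tested, 8 were higher in CA1 (72.7%), the other members also lay above 0, and the median log2 fold change was 1.24. The summed level was 4766, 10886, 4373 and 5904 CPM in CA1 replicates 1 to 4, 2628, 3021, 2983 and 2083 in CA3 and 1319, 1703, 1411 and 1385 in DG. The CA1 and CA3 groups did not overlap, and CA1 replicate 2 stood highest. Mbp, myelin basic protein, had 1275, 3809, 1432 and 1679 CPM in CA1 and 856, 1143, 892 and 455 in CA3 (log2 fold change 1.24, adjusted p = 1.34e-10). Mag and Mog, glycoproteins of the myelin surface, were at 1.80 and 2.03, and Mog had 8, 81, 12 and 16 UMIs in CA1 and 5, 18, 3 and 0 in CA3, with an overlap between the regions. Without CA1 replicate 2, 6 of the list were higher in CA1, with Mbp at 0.71 and Mog at 1.33. Mog stood at 3.06 without CA3 replicate 2, and Opalin at 3.27 without CA3 replicate 3. With 1 replicate left out, the call was lost for Mobp without CA1 replicate 2 (0.53) and for Opalin without CA1 replicate 2 (1.30). DESeq2 called 5 of the list and did not call Mbp, Mobp or Mog.

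The lists of other cell types held few tested genes, and at the 7.2% called over all genes they could hold few calls, so their counts are given as a description. Of 11 astrocyte genes and 7 microglial genes tested, 0 were called by edgeR or DESeq2 and 0 had an unadjusted p under 0.05, and the summed astrocyte level ran from 2269 to 3001 CPM in CA1 and from 2200 to 2971 in CA3. Gfap, the intermediate filament of astrocytes, was at 149.6 ± 29 CPM in CA1 and 101 ± 22.2 in CA3 (SD, n = 4, adjusted p = 0.449). The 3 precursor genes tested gave the same counts of 0. Of 6 vessel genes Bsg was higher in CA3 (-1.28). Of 11 interneuron genes tested, Sst, somatostatin, had 27, 76, 32 and 30 UMIs in CA1 and 6, 20, 21 and 11 in CA3 and was higher in CA1 (1.48), while Nos1 had 0, 1, 4 and 2 UMIs in CA1 and 14, 6, 14 and 9 in CA3 and was higher in CA3 (-2.61). The 5 erythrocyte genes all had fewer than 10 UMIs. Bsg lost its call without CA1 replicate 1 (-1.24), CA1 replicate 3 (-1.11), CA1 replicate 4 (-1.23), CA3 replicate 1 (-1.10) or CA3 replicate 2 (-1.31). Bsg lost the call after thinning, under DESeq2, with no low-count filter and without replicate 4 of both regions.

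Genes of structures next to the hippocampus were found in the CA3 replicates. Ttr, transthyretin, the main secreted product of the choroid plexus, had 0, 0, 2 and 1 UMIs in CA1 and 194, 27, 48 and 21 in CA3, a ratio of 96.9-fold (95% counting interval 32.8 to 473) in favour of CA3. The adjusted p was 1.39e-44. CA3 replicate 1 stood far above the other CA3 replicates, and every CA3 replicate lay above every CA1 replicate. Without it the log2 fold change was -5.23 and the call held. In HCl-permeabilized fresh-frozen sections Ttr was higher in CA1, at a log2 fold change of 1.98. Of 8 choroid plexus genes, 3 were tested, Ttr alone was called, 5 had fewer than 10 UMIs and 2 had 0 UMIs in all 8 replicates. Prkcd, protein kinase C delta, which is abundant in the thalamus, had 0, 0, 0 and 0 UMIs in CA1 and 10, 23, 15 and 11 in CA3, at least 19.7-fold higher in CA3 against a floor of 3 UMIs over the CA1 group. Zic1, a transcription factor that is also expressed in the thalamus, had 7, 7, 7 and 2 UMIs in CA3. Lef1, another such factor, had 2, 10, 5 and 0 UMIs in CA3, and both had 0 UMIs in every CA1 replicate.

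A list of 15 thalamic genes was drawn up after these values were seen, and it is given as a description. Of 12 tested, 9 (75%) were called higher in CA3 (Prkcd, Tcf7l2, Lef1, Zic1, Ntng1, Rora, Synpo2, Amotl1 and Vav3). The median log2 fold change was -2.50, or -2.41 with genes at 0 UMIs in a region set to their bound. Its summed level was 188, 232, 230.2 and 73.8 CPM in CA1, 642, 1320, 564 and 795 in CA3 and 1536, 1615, 1345 and 1624 in DG. Slc17a6, the vesicular glutamate transporter VGLUT2 of thalamic neurons, had 1, 7, 3 and 1 UMIs in CA1 and 2, 15, 3 and 5 in CA3 and did not pass the threshold (adjusted p = 0.316). Without CA3 replicate 2, 2 of the list were called (Prkcd and Zic1), and Lef1, Synpo2 and Vav3 then had fewer than 10 UMIs. DESeq2 also called 2 of the list and gave no adjusted p for Lef1, Zic1, Synpo2 and Vav3. Ntng1 stood at -4.13 without CA1 replicate 1. The part of thalamic or choroid plexus RNA in the CA3 calls was not tested. The call was lost, on leaving out 1 replicate, for Tcf7l2 without CA3 replicate 2 (-1.58), for Ntng1 without CA1 replicate 2 (-1.93) or CA3 replicate 2 (-2.05), for Rora without CA3 replicate 2 (-1.14), for Synpo2 without CA1 replicate 2 (-2.83), for Amotl1 without CA3 replicate 2 (-2.01), and for Vav3 without CA1 replicate 1 (-3.13), CA1 replicate 2 (-2.67), CA1 replicate 4 (-3.18) or CA3 replicate 1 (-3.30). Ntng1, Rora and Amotl1 lost the call after thinning and under DESeq2, Vav3 did so with no low-count filter, and Synpo2 and Vav3 did so without replicate 4 of both regions.

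**Figure D4:**
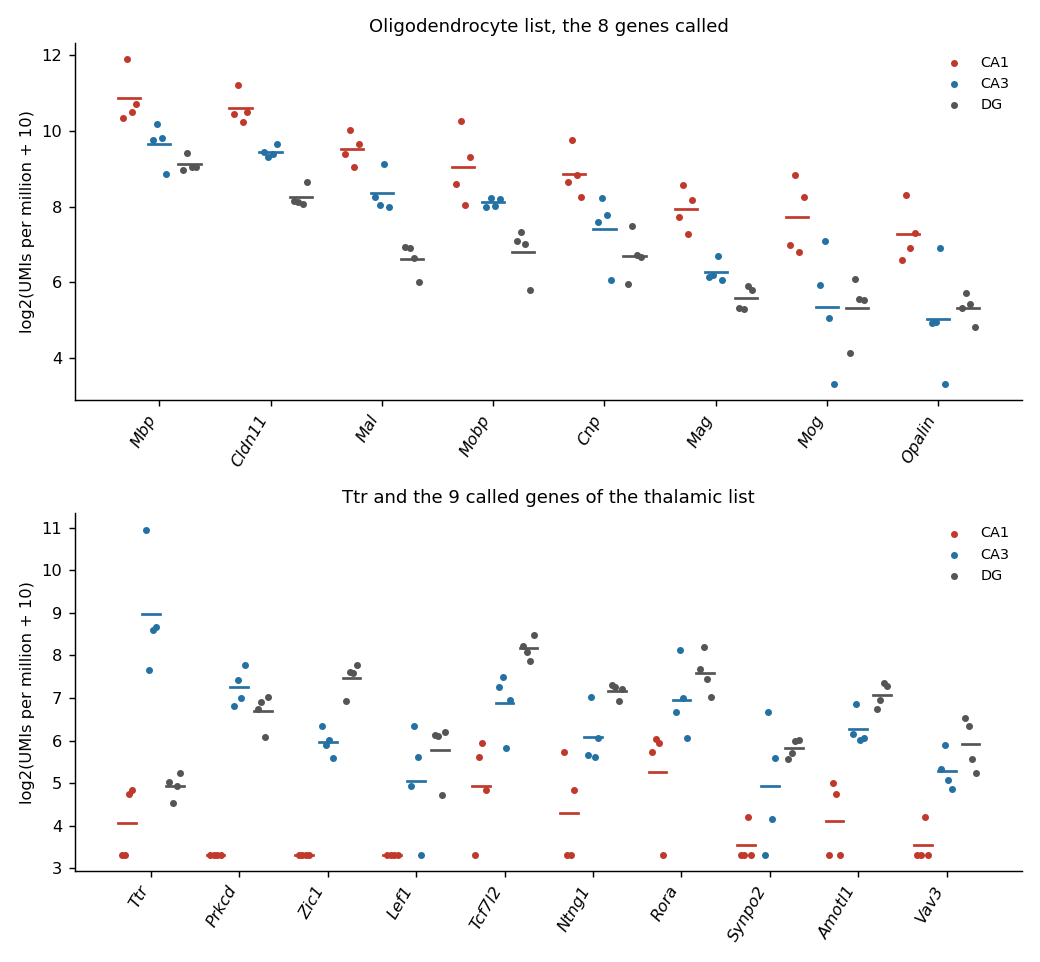
Level in each replicate, as log2(CPM + 10), of the 8 called oligodendrocyte genes (top) and of Ttr and the 9 called genes of the thalamic list (bottom) in CA1, CA3 and DG of fixed frozen sections. Points are replicates and short bars are the means of 4. The means of the oligodendrocyte genes are highest in CA1, and the thalamic genes are low in CA1 and present in both CA3 and DG.

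The same comparison was made in the other 3 conditions, in which the regions were again 4 against 4 replicates. CA1 and CA3 differed in 640 of 14544 genes (4.4%; 1.99% higher in CA1 and 2.41% higher in CA3) in TE-permeabilized fresh-frozen sections, in 1428 of 15637 (9.13%; 4.07% and 5.06%) in HCl-permeabilized fresh-frozen sections and in 177 of 7495 (2.36%; 0.64% and 1.72%) in paraffin sections. The median total of the 8 replicates was 107742 UMIs in fixed frozen sections, 709450 and 770626 in the fresh-frozen conditions with TE and HCl and 51686 in paraffin sections. When all were thinned to 35932 UMIs per replicate, the counts were 231 in fixed frozen sections, 63 and 114 in the fresh-frozen conditions with TE and HCl, and 134 in paraffin sections. Only the totals were matched, and UMI collisions compress the totals of the deeper conditions, so equal totals are not equal depth.

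Of the 597 genes called in fixed frozen sections, 593 were also tested in TE-permeabilized fresh-frozen sections, and 525 of these (88.5%) had the same sign, against 60.5% of all genes tested in both. Called there with the same sign were 269, which is 45.1% of the fixed frozen calls and 42.0% of the 640, and 4 were called with the opposite sign. In HCl-permeabilized sections 312 were called with the same sign and 10 with the opposite sign. In paraffin sections 84 were called with the same sign and 2 with the opposite sign. Across these genes Pearson's r of the log2 fold changes was 0.766, 0.736 and 0.659 for the TE, HCl and paraffin conditions, where genes are not independent replicates. With the same sign in all 4 conditions, 55 genes were called, 14 higher in CA1 and 41 higher in CA3. Mpped1, Pou3f1, Bcl11b, Foxp1, Kcnh7, Itpka and Thbd were among the 14, and Cpne4, Nptxr, Chgb, Nrip3, Slit2, Syn2 and Snap25 among the 41. Prkcd and Tcf7l2 of the thalamic list were among the 41 as well. Of that list, 6 of 14 genes tested were higher in CA3 with TE, 11 of 14 with HCl and 2 of 13 in paraffin sections. The shares over all genes tested were 2.41%, 5.06% and 1.72%.

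**Figure D5:**
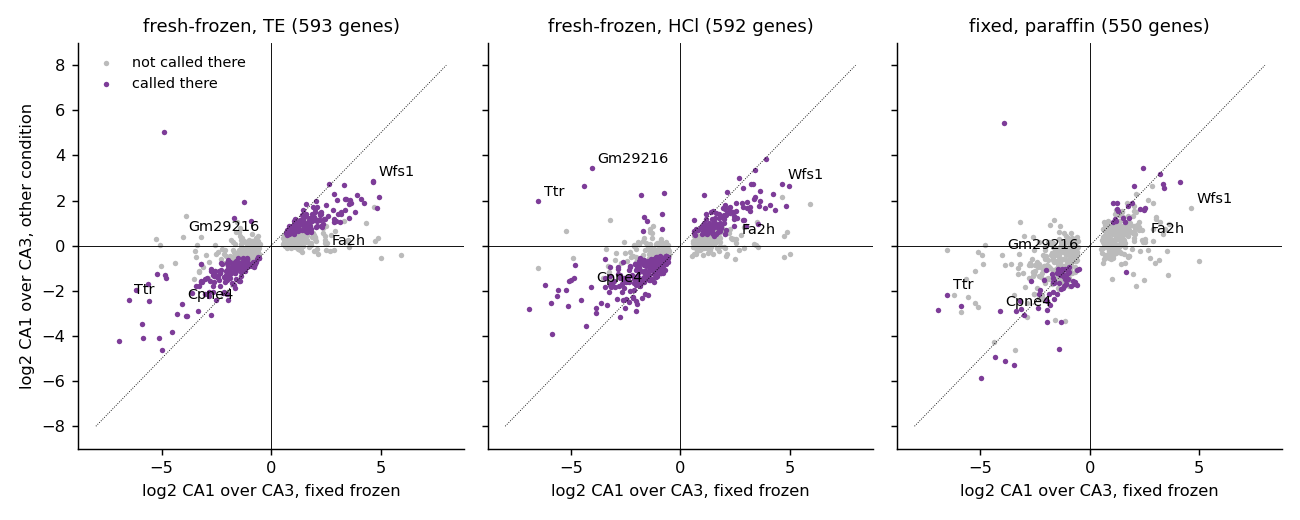
Log2 fold change of CA1 over CA3 in each of the other 3 conditions (vertical axis) against that in fixed frozen sections (horizontal axis) for the genes called in fixed frozen sections and tested in the other condition. Each point is 1 gene, purple points were called in the other condition too, and the dotted line marks equal values. Wfs1 and Cpne4 keep their sides in all 3 panels. Ttr changes sides in the HCl panel, and Gm29216 in the fresh-frozen TE and HCl panels.

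The medians of the CA1 and CA3 lists kept their direction in the other conditions. The log2 fold change of Wfs1 was 4.64 in fixed frozen sections, 2.84 and 2.72 in TE- and HCl-permeabilized fresh-frozen sections and 1.66 in paraffin sections. The difference of the first pair, tested with an interaction term, did not pass the threshold (adjusted p = 0.215). The median of the CA1 list was 3.02 in fixed frozen sections against 2.04, 1.79 and 1.40, and that of the CA3 list was -2.74 against -1.58, -1.79 and -1.84, in the same order of conditions. The median of the CA2 list was -1.48 against -0.16, 0.22 and -0.20, so it turned in HCl-permeabilized sections. The numbers of list members tested differed between the conditions.

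The interaction term, which compares the effect of region between fixed frozen and TE-permeabilized fresh-frozen sections, was called for 50 of 14904 genes (0.335%), 19 above 0 (0.127%) and 31 below 0 (0.208%). The CA3 genes Elavl2 and Spock1 were among them, each with the larger fold change in fixed frozen sections. Elavl2 was at -1.12 in the fresh-frozen sections and Spock1 at -1.02, with interaction values of -1.64 and -1.76. Of the 11 oligodendrocyte genes, 4 were called in the interaction (Mag, Mog, Cldn11 and Opalin), all with the higher value in fixed frozen sections, and in the fresh-frozen comparison itself the list had 0 calls by edgeR or DESeq2, 0 genes with an unadjusted p under 0.05 and a median of 0.14. Fa2h was called in the interaction too, at 2.53 in fixed frozen and -0.19 in fresh-frozen sections. Hsp90aa1, a heat shock chaperone, was at -1.39 and -0.01 in the same order, and Eif4b, a translation initiation factor, at -1.71 and 1.21. With 1 replicate left out, the interaction call was lost for Mag without CA1 replicate 2 (1.36), for Mog without CA1 replicate 2 (1.09), CA3 replicate 1 (1.80), CA3 replicate 3 (1.57) or CA3 replicate 4 (1.62), and for Opalin without CA1 replicate 2 (1.49) or CA3 replicate 2 (1.89).

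Against paraffin sections the interaction was called for 44 of 10122 genes (0.435%), 27 above 0 (0.267%) and 17 below 0 (0.168%). Elavl2, Spock1, Mag and Fa2h had the larger fold change in fixed frozen sections, with interaction values of -1.92, -1.91, 2.26 and 2.26. Cx3cl1, the neuronal chemokine fractalkine, was at 1.65 in fixed frozen and -1.18 in paraffin sections. Sumo2 and Tuba1b were not called in fixed frozen sections (-0.42 and -0.54) and were at 4.40 and -4.39 in paraffin sections. Among these genes the interaction call was lost for Elavl2 without CA1 replicate 4 (-1.64), paraffin CA1 replicate 1 (-1.41), paraffin CA1 replicate 2 (-1.60) or paraffin CA3 replicate 2 (-1.73), for Spock1 without CA1 replicate 1 (-1.68) or paraffin CA1 replicate 3 (-1.56), for Mag without CA1 replicate 2 (1.89), and for Fa2h without paraffin CA3 replicate 1 (1.55). Each condition and region is 1 library, so a difference between conditions and a difference between libraries cannot be told apart.

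The gene with the smallest p-value in the comparison was Gm29216, an unprocessed pseudogene on the minus strand of chromosome 1 at 24615706 to 24616197 (GRCm38, GENCODE M21). It had 21, 69, 43 and 21 UMIs in CA1 and 686, 684, 576 and 371 in CA3, log2 fold change -4.03 and adjusted p = 1.25e-78. In HCl-permeabilized fresh-frozen sections it had 2513, 2394, 2809 and 797 UMIs in CA1 and 377, 228, 268 and 375 in CA3, the opposite direction. With TE it had 1685, 1149, 1157 and 745 UMIs in CA1 and 1133, 1324, 1037 and 726 in CA3, and the mean CPM was higher in CA1. In fixed frozen and HCl-permeabilized sections the replicates of CA1 and CA3 did not overlap, in opposite directions. The annotated neighbour Gm10925 and the pseudogenes Gm13340 and Gm13341 on chromosome 2 were not called in fixed frozen sections (log2 fold changes 0.17, -0.27 and -0.28) and were at -4.0, 3.37 and -2.71 in TE-permeabilized fresh-frozen sections. Reads of unprocessed pseudogenes can be shared with near-identical copies, so these counts are uncertain.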

How the data were processed

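Sections of mouse hippocampus were profiled by photo-isolation chemistry, in which amplification follows CEL-seq2. The authors extracted UMIs with UMI-tools 1.0.0, aligned reads to GRCm38 with HISAT2 2.1.0, assigned them to genes with featureCounts 1.6.4 and deposited UMI counts per gene, with no strand option stated. Identifiers were named with GENCODE M21, which held 32530 of the 32546.

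Counts were tested with edgeR 4.0.16 (R 4.3.3), using the quasi-likelihood test with TMM scaling, on CA1 and CA3 columns only, for genes with at least 10 UMIs over the columns fitted. Calls were made where the Benjamini-Hochberg adjusted p lay under 0.05. Fold changes are fitted log2 values of CA1 over CA3, and an SE is the log2 value divided by the square root of F. The other conditions were fitted alike, and differences between conditions with an interaction term. UMIs have 6 bases, or 4096 possible sequences, so UMI collisions lower the highest counts. The largest count of a gene was 3079 in the CA1 and CA3 replicates of fixed frozen sections. It reached 4356 in HCl-permeabilized fresh-frozen sections and ran from 4107 to 4317 in the CA1 and CA3 replicates of TE-permeabilized ones. These counts lie above 4096, and the reason was not examined. Counting intervals (exact, 95%) and the floor of 3 counts cover counting error only. DESeq2 1.42.0 was an alternative, and the closing section gives the others. In counts simulated for this comparison over 7890 genes, the test called 96% of 100 genes changed by 2 log2 units, 47% of 100 changed by 1, and 5 unchanged genes. The changed genes were drawn only from those averaging at least 5 UMIs per replicate. Counts followed the trended dispersion, without further spread between genes. These shares therefore need not hold for tested genes with fewer UMIs or a larger spread.

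Genes were named by rule. These were the genes the study used as labels, the 15 called genes per direction with the largest change among those with at least 40 UMIs and no overlap, the 5 with the smallest adjusted p, the members of fixed gene lists, and the 5 with the smallest adjusted p in each interaction. The comparison and the lists were chosen with earlier results of these data known, and the thalamic list after the values were seen. A few genes are not reported here and were left out of the lists. Pantr1, Ccnd2, Hsp90aa1 and Sumo2 fall outside the rule and were chosen after their values were seen.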

Additional observations from a re-analysis of the deposited data

Results flagged for a closer look

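Single replicates stood apart from the other 3 of their region in 15 of 264 groups of 4 values examined, where chance gives about 1 in 20 (5%). A group was examined where the region held at least 20 UMIs of a named gene. Higher than the others, in CPM, were Nnat in CA3 replicate 3 (157 against 49.4 to 61.1), Plk2 in CA3 replicate 4 (265 against 219 to 226), Ttr in CA3 replicate 1 (1976 against 191 to 398) and Nptx2 in CA3 replicate 1 (81.5 against 37.9 to 42.3). The same held for Adora1 in CA1 replicate 1 (464 against 276 to 307), Adgrl2 in CA1 replicate 1 (86.9 against 51.2 to 55.3), Epha7 in CA1 replicate 3 (989 against 830.2 to 855), Mbp in CA1 replicate 2 (3809 against 1275 to 1679), Mal in CA3 replicate 3 (548 against 246 to 295), Tuba1b in CA1 replicate 2 (166 against 72.4 to 76.7) and Amotl1 in CA3 replicate 2 (106 against 54.8 to 61.1). Lower than the others were Man1a in CA1 replicate 3 (111 against 159 to 166), Ndst4 in CA1 replicate 1 (29 against 66.3 to 73.8), Tcf4 in CA3 replicate 1 (1080 against 1623 to 1667) and Syt13 in CA1 replicate 2 (77.4 against 128 to 130.4). The Ttr and Mbp values belong to groups of genes described above, and both calls held without the replicate named.

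The effect of region differed between fixed frozen and TE-permeabilized fresh-frozen sections for 50 genes by the interaction term. Of the named genes, those with a higher CA1 over CA3 value in fixed frozen sections were, as the difference of log2 fold changes, Mpped1 (2.08), Fa2h (2.74), Zeb2 (1.03), Mag (1.77), Mog (1.85), Cldn11 (1.35), Opalin (2.21), Cx3cl1 (1.04), Gm10925 (4.14), Gm13341 (2.40) and Rps6 (8.16). Those with a lower value were Elavl2 (-1.64), Spock1 (-1.76), Pcp4 (-1.30), Neto1 (-4.36), Mctp1 (-2.49), Fxyd7 (-2.23), Ttr (-4.27), Gm29216 (-4.45), Rph3a (-1.35), Tubb5 (-1.33), Lef1 (-6.98), Eif4b (-2.93), Hsp90aa1 (-1.41), Gm13340 (-3.66) and Srp54b (-5.37). Between fixed frozen and paraffin sections the interaction was called for 44 genes. The named genes with a higher value in fixed frozen sections were Pex5l (1.83), Fa2h (2.26), Calm2 (1.36), Mag (2.26), Cnp (1.33), Tuba1b (3.86), Cx3cl1 (2.80), Gm10925 (1.90) and Rpl37rt (3.11), and those with a lower value were Elavl2 (-1.92), Spock1 (-1.91), Kctd4 (-2.77), Ttr (-4.18), Gm43629 (-6.12), Gm29216 (-3.63), Sumo2 (-4.88), Srp54b (-9.61) and ENSMUSG00000095280 (-2.32). In fixed frozen sections Lef1 and Gm43629 had 0 UMIs in CA1, Rps6 had 0 in CA3 and Srp54b had 2 in CA1, so the size of their fitted differences depends on the prior count. With each of the 16 replicates left out in turn, 19 of these 44 gene results kept the call throughout. The others lost it in the number of cases given after each name, which for fresh-frozen TE were Cx3cl1 (11), Fxyd7 (11), Lef1 (3), Mag (1), Mctp1 (8), Mog (4), Mpped1 (6), Neto1 (1), Opalin (2), Pcp4 (4), Rph3a (3), Rps6 (1), Srp54b (4), Ttr (1), Tubb5 (8) and Zeb2 (15), and for paraffin were Cnp (9), Elavl2 (4), Fa2h (1), Gm43629 (11), Kctd4 (8), Mag (1), Pex5l (9), Spock1 (2) and Ttr (1).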

How the results depend on the processing

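Wfs1, Cpne4, Spock1 and Elavl2 kept their direction and call under every alternative run. The number of genes called fell from 597 to 292 with DESeq2 (127 higher in CA1, 165 in CA3) and to 323 with all replicates thinned to the smallest total (161 and 162). It was 616 with DESeq2 size factors in edgeR, 464 with no low-count filter, 440 with filterByExpr, 613 with the DG columns in the fit, 599 after a correction for UMI collisions and 605 without mitochondrially encoded genes. Leaving out 1 replicate gave 454 to 542 calls, 197 to 252 higher in CA1 and 243 to 292 higher in CA3. Leaving out replicate 4 of both regions, an alternative chosen after seeing the data, gave 446. Of 155 called genes followed through the alternatives, which are the named genes and some further list members, 112 kept the call in every fit without 1 replicate that tested them, and DESeq2 kept 111, lost 33 and gave no adjusted p for 11. Thinning lost 33.

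The replicate numbers are shared between regions in the titles. Deviations from the region means correlated at 0.0653 to 0.218 between same-numbered replicates, and 3 of 4 in each region correlated best with their own number. Between replicates of different numbers the correlations ran from -0.120 to 0.0807. In both regions the total UMIs fell in the order of replicates 2, 3, 1 and 4. Whether the numbers pair the samples is not stated. The main fit held no term for the replicate number, and structure shared by number was not excluded. With the replicate block 700 genes were called, and of the genes followed 3 lost the call (C1ql2, Kcnt2 and Vav3) and 1 gained it (Rpl37rt). The replicate block moved the fresh-frozen TE comparison from 640 to 1222 calls and the fresh-frozen TE interaction from 50 to 152.

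In the other conditions, thinning to the smallest total gave 63 calls for fresh-frozen TE and 114 for HCl, and DESeq2 gave 89 for paraffin. For the interaction with fresh-frozen TE, DESeq2 gave 93 calls, thinning 12, and leaving out 1 replicate 31 to 76 (32 without CA1 replicate 2 and 31 without CA3 replicate 1 of fixed frozen sections, 76 without CA3 replicate 4 of fresh-frozen sections). For paraffin, thinning gave 18. The share of called genes with the same sign in fresh-frozen TE was 92.8% under DESeq2 and 87.3% to 90.5% with 1 replicate left out. The ratio of total UMIs, CA1 over CA3, was 1.00 and turned to 0.959 for geometric means, with 0.763 to 1.16 on leaving out 1 replicate. For detected genes that range was 0.912 to 1.04. Pdzd2 turned to -0.30 without CA1 replicate 1, in a range up to 1.70, and Dkk3 to 0.040 without CA1 replicate 2, in a range down to -0.35, neither called. The cause of these changes was not tested, except that thinning and leaving out replicates reduce the data.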
